A study of Mus musculus with 7 samples.

Results

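The BMP and TGF-beta receptors of endothelium were examined as 10 genes, out of 21829 protein-coding genes processed in the same way. They are 4 type I receptors (Acvrl1, Acvr1, Bmpr1a, Tgfbr1), 4 type II receptors (Bmpr2, Tgfbr2, Acvr2a, Acvr2b) and the co-receptors Eng and Tgfbr3. They were chosen by name, not by a measured value, but with earlier results of these data known. For each gene, all open-chromatin peaks that overlapped the gene body extended by 20 kb on both sides were taken from a list of early G1 peaks and a list of late G1 peaks. The assay was ATAC-seq, which reads out accessible DNA by where a transposase can cut and tag it, and the cells were retinal endothelial cells of mice at postnatal day 6. All animals carried the FUCCI reporter, a pair of fluorescent proteins that follow the cell cycle; the labels do not name the promoter that drives it. Living cells positive for CD31 and negative for CD45 were separated into non-fluorescent cells, taken as early G1 (3 libraries), and red cells, taken as late G1 (4 libraries). Whether the libraries were from different animals is not stated in the labels. The authors pooled the libraries before calling peaks, giving 1 list per group. Replicate errors can therefore not be given, and differences between the lists cannot be tested.

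Signals of the TGF-beta superfamily are received by a pair of type I receptors and a pair of type II receptors on the cell surface. The type II receptor phosphorylates the type I receptor, which in turn phosphorylates SMAD transcription factors. In endothelium the circulating ligands BMP9 and BMP10 act through ALK1, the product of Acvrl1, with BMPR2 or ACVR2A and the co-receptor endoglin, whereas TGF-beta binds TGFBR2 and then ALK5, the product of Tgfbr1. Loss of Acvrl1, Eng or Smad4 from endothelium is known to cause arteriovenous malformations in the neonatal mouse retina, and human mutations in ENG and ACVRL1 cause hereditary haemorrhagic telangiectasia.

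The lists differ across the whole genome, and this bears on every comparison between them. The early pool of 137191808 fragments gave 606661 peaks with a median length of 1334 bp that covered 40.5% of the sequenced genome. The late pool of 124693948 fragments gave 383721 peaks with a median length of 681 bp that covered 13.3%. The median fold, the authors' ratio of a peak's pileup to local background, was 2.09 for early peaks and 3.85 for late ones. Pileup is the mean number of overlapping fragments in a peak. Of 8 endothelial marker genes, 6 had an early peak within 1 kb of a start site and 4 a late one, and Tek, the angiopoietin receptor gene, had none in either. Of 28 markers of other retinal and blood cells the counts were 27 and 17. In both lists such peaks were less frequent at endothelial markers than at markers of other cells, without a test. Among all protein-coding genes 92.6% had an early one and 67.4% a late one. The part of other cells in the values below was not tested.

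All 10 receptor genes had open chromatin at a start site in at least 1 of the lists. A start-site peak is one that overlaps the 1 kb on either side of the first base of any protein-coding transcript. In the early list 9 of the 10 genes had such a peak, where 92.6% of all protein-coding genes did. In the late list all 10 did, where 67.4% of all genes did. The early count is at the level of the genome and the late count is above it, without a test. The receptors have a median of 2.5 start sites per gene against 2 for all genes. Both lists had a start-site peak for 9 of the 10, against 64.3% of all genes. The remaining gene, Tgfbr2, had it in the late list only, as did 3.07% of all genes. An early peak without a late one was seen at none of the 10 but at 28.3% of all genes, and 4.3% of all genes had neither. The late count rests partly on weak peaks: with peaks at or above each list's median significance score it was 5 of 10, against 31.8% of all genes, and Eng, Bmpr2, Tgfbr2, Acvr1 and Acvr2a lost theirs. The early count was then 8 of 10, against 66.6% of all genes. With equal numbers of the strongest peaks from both lists, the early count was 5 of 10, against 47.1%. The late count also rests on peaks near the edge of the window. With 500 bp in place of 1 kb it was 7 of 10, and Eng, Bmpr1a and Tgfbr3 lost theirs. The same genes lost theirs when the peak's centre had to lie in the window. With 500 bp both lists had a start-site peak for 6 of the 10. Shares of all genes were not computed for these settings.

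**Figure D1:**
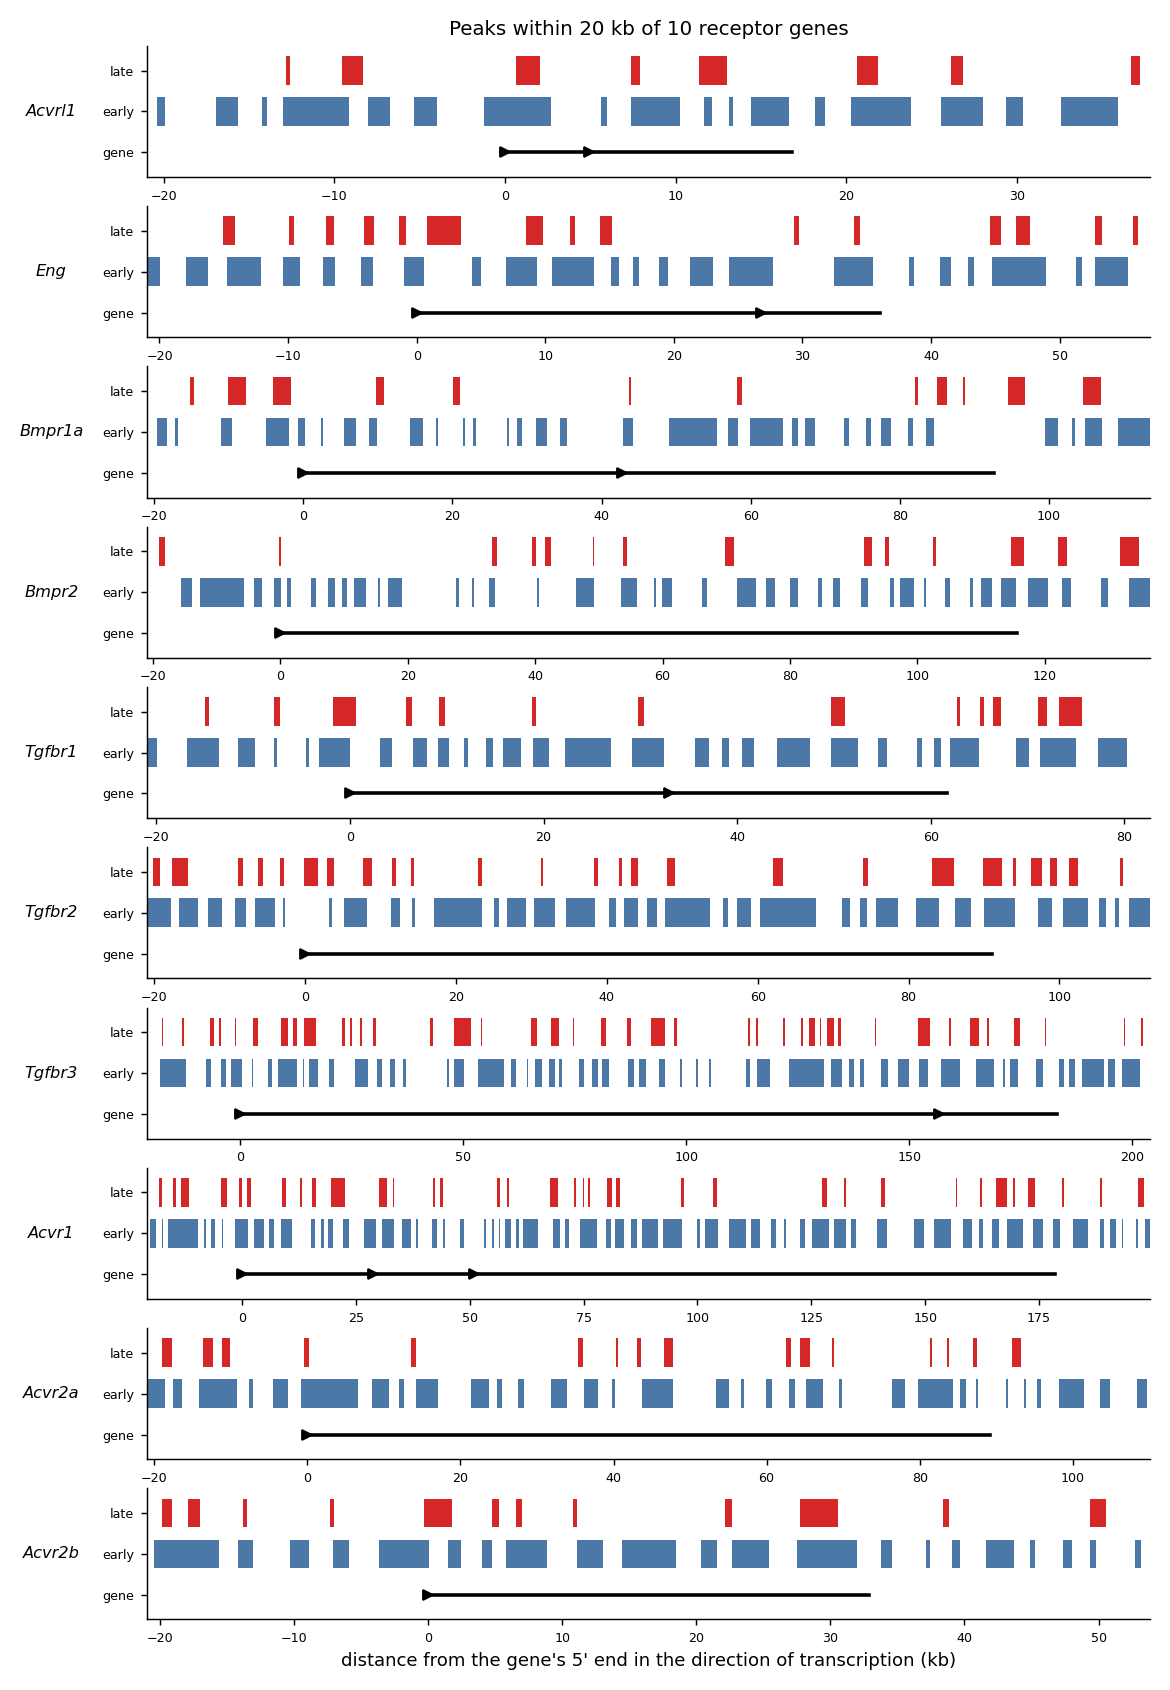
Peaks within 20 kb of each of the 10 genes, drawn against the distance from the gene's 5' end in kb, in the direction of transcription. Blue boxes are early G1 peaks, red boxes late G1 peaks, the black line is the gene body and arrowheads are start sites; the early list has 330 peaks in these windows and the late list 190, and Tgfbr2 has no early peak at its start.

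Within the 10 windows the early list held 330 peaks and the late list 190. Early peaks covered 44.2% of the windows and late peaks 13.8%, against 43.6% and 14.6% when the windows of all protein-coding genes were pooled. Of the early peaks 197 lay in introns, 14 in exons, 44 in the upstream flank, 53 in the downstream flank, 15 at the genes' own start sites and 7 at the start of a neighbouring gene. Of the late peaks 105 lay in introns, 9 in exons, 31 upstream, 30 downstream, 12 at own start sites and 3 at a neighbour's. Intronic peaks made up 59.7% of the early and 55.3% of the late peaks, against 45.5% and 45% in the windows of all genes. Introns take up 63.9% of the bases of the receptor windows and 50.1% of those of all genes. Overlap with an early peak, of 1 bp or more, was found for 143 of the 190 late peaks (75.3%), against 66.4% of all late peaks. An early peak overlapped a late one in 130 of 330 cases (39.4%), the same share as over all early peaks, 39.4%. With peaks at or above each list's median significance score the late overlap fell to 42 of 106 peaks. With equal numbers of the strongest peaks from both lists it was 24 of 106. Shares over all peaks were not computed for these settings.

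The peaks with the highest folds lay outside the start sites, as in most genes. In the late list, start-site peaks had a median fold of 3.41 (12 peaks), intronic peaks 4.44 (105 peaks) and exonic peaks 6.84 (9 peaks). In each of the 10 genes the late peak with the highest fold outside the start sites exceeded every start-site peak of that gene. The same held for 91.9% of all genes with both kinds of late peak, and a window holds many more peaks outside its start sites than at them. These 10 peaks had folds from 9.67 to 18.7, and 7 of them were intronic, 2 exonic and 1 in an upstream flank. In the early list 9 of the 9 genes with a start-site peak had a higher fold elsewhere in the window, against 89.5% of all such genes. The early folds were close together, at 2.15 for 15 start-site peaks and 2.07 for 197 intronic peaks. A fold of at least 4 was reached by 102 of 190 late peaks (53.7%, against 48.4% of the whole late list) and by 2 of 330 early peaks (0.606%, against 0.104%). These 2 early peaks, in Acvr1 (fold 7.39) and in intron 1 of Bmpr1a (fold 4.33), were 51.6% and 53.2% repeats.

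**Figure D2:**
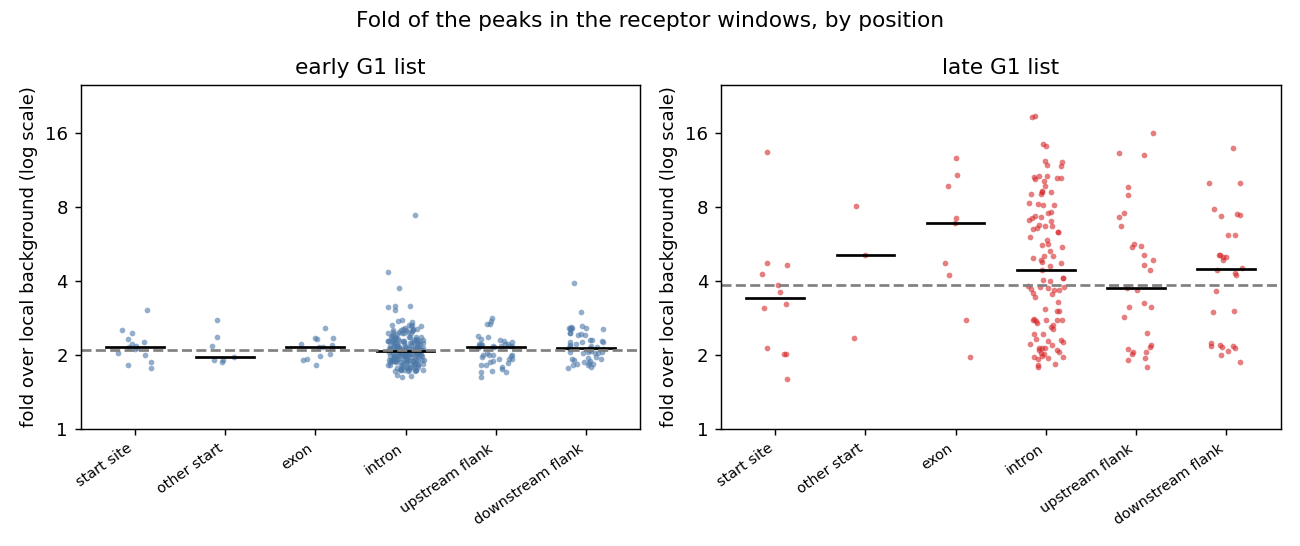
Authors' fold over local background of every peak in the 10 windows, on a log axis, by position of the peak; each point is 1 peak, black bars are medians and the dashed line is the median of the whole list (2.09 early, 3.85 late). Late peaks reach 18.7 in introns, while the early list has 2 peaks at 4 or more.

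The type I receptors are described first. Acvrl1 encodes ALK1, the endothelial receptor of BMP9 and BMP10, and lies on the plus strand of chromosome 15 (chr15:101128522-101145336, mm10). Its window held 17 early and 8 late peaks, which covered 51.3% and 12.7% of it. An early peak of 3909 bp (pileup 37.2, fold 2.1) spanned all 6 start sites of the first start group and covered 100% of the bases within 1 kb of the 5' end. A late peak of 1401 bp (pileup 52.4, fold 4.73) lay entirely inside that early peak, with its centre 1.33 kb into the gene in intron 2, and covered 18.5% of the 5' window. The start base itself was outside the late peak. The strongest late peak of the window, at a pileup of 217 and a fold of 12.6, was 552 bp long and centred 7.63 kb into the gene on exon 6, and 537 bp of it were also early. The late list thus placed its highest fold inside the gene body and not at the start. Its central bases, shown because they are the strongest late signal at this gene, contain none of 10 short motif words that were searched, which are spelled out after the single genes.
Acvrl1, chr15:101136006-101136305, plus strand: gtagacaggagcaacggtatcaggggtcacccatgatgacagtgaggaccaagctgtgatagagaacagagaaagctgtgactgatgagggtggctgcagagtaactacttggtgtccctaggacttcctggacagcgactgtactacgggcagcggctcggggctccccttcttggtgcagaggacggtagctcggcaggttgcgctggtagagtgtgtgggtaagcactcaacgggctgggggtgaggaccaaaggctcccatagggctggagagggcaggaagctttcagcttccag

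Acvr1 encodes ALK2, a widely expressed BMP type I receptor, on the minus strand (chr2:58388644-58567157). It is the second longest of the genes and had the most early peaks, 60, with 35 late peaks, which covered 46.8% and 14.3% of its window. The 5' window was covered at 100% by an early peak of 2789 bp (fold 2.15) and at 32.6% by 2 late peaks that flanked the first starts without containing them. Nearly all of that 32.6% came from the peak of 652 bp, while the other reached only the edge of the window. The peak of 652 bp had a fold of 1.59 and the lowest significance of any late peak in the 10 windows. It was at percentile 0.067 of the late list and also overlapped the start of the neighbouring gene Upp2. A start group 28.7 kb into the gene was covered at 85.6% in the early list and at 0% in the late list, and another 50.9 kb in was covered in neither. Acvr1 also held the highest pileup of the windows in both lists, 140 kb from the 5' end within the gene body but beyond its principal transcript: 164 (fold 7.39) over 2255 bp in the early list and 636 (fold 14.1) over 967 bp in the late list. Repeats made up 51.6% and 67.1% of these peaks. It was the only one of 146 overlapping pairs in the windows with both folds above the 90th percentile of their lists.

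Bmpr1a encodes ALK3, the type I receptor for BMP2 and BMP4, on the minus strand (chr14:34410734-34503341). It had 31 early and 12 late peaks, and its early covered share, 33.4%, was the lowest of the 10, with 11.4% in the late list. At the 5' end an early peak of 967 bp (pileup 25.6, fold 2.21) covered 48.3% of the window, whereas the late list covered 0%. Among all genes, 41% had no late coverage there and 10.5% no early coverage. The nearest late peaks lay 1585 bp upstream of the first start and 8936 bp below the last start of that group. The only late start-site peak of Bmpr1a belonged to an internal start 42.8 kb into the gene. That peak, 302 bp long with a pileup of 149 and a fold of 13.3, was the strongest late start-site peak of all 10 genes. It lay in intron 2, 850 bp from the internal start, and reached the 1 kb limit only with part of its length, covering 7.55% of that window. An early peak of fold 1.82 contained all 302 bp. Its sequence is shown because no other start-site peak of these genes had so high a fold, and it holds 1 ACAATG word (the SOX motif, on the opposite strand, in capitals), which 17.7% of all late peaks hold in their central 300 bp.
Bmpr1a, chr14:34459406-34459705, minus strand: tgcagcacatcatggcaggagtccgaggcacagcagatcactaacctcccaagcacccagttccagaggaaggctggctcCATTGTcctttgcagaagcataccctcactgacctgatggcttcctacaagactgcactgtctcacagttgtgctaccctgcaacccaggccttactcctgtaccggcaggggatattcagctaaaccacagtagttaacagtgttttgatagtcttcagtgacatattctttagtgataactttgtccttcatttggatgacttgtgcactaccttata

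Tgfbr1 encodes ALK5, the TGF-beta type I receptor, on the plus strand (chr4:47353222-47414931). It had 27 early and 13 late peaks, covering 47.8% and 11.8%. Here the late list covered more of the 5' window than the early list, 79.5% against 50.3%. The late peak, of 2306 bp (pileup 70, fold 4.65, GC content 63.2%), contained all 3 starts of the first group, and the early peak, of 3189 bp (pileup 29.9, fold 2.44), ended within it, 1722 bp being common to both. The highest late fold, 18.6, was at a peak of 598 bp (pileup 209) in intron 1, 30.1 kb from the 5' end, all of it inside an early peak of fold 2.12. That early peak reached the window of an internal start 33 kb into the gene, where the late list covered 0%.

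The type II receptors follow. Bmpr2 encodes the main BMP type II receptor of endothelium, in which loss-of-function mutations cause heritable pulmonary arterial hypertension, and lies on the plus strand (chr1:59763400-59879014). It had 37 early and 14 late peaks, covering 34.5% and 9.41%, low values in both lists. It has 1 start site, contained in both an early peak of 1097 bp and a late peak of 307 bp that lies entirely within it. The early peak, with its fold of 3.04 and pileup of 36.3, had the highest fold of the early start-site peaks of the 10 genes, at percentile 98.2 of the early list by significance. The late peak was weak, with a fold of 2.12 and a pileup of 22.9, at percentile 13.6 of the late list. The RefSeq promoter of Bmpr2 (chr1:59764029-59764328) belongs to a start further downstream and was covered by neither list. From the start the next late peak lay 33221 bp downstream, and the next upstream 18045 bp away. The highest late fold, 10.8 (pileup 197, 1198 bp, 59.8% repeats), was 92.3 kb into the gene. This peak was classed as exonic by the exons of all transcripts, but its centre lay in intron 9 of the principal transcript. The 250 bases before the start, with a GC content of 68.8% and 27 CpG dinucleotides, are shown because they were open in both lists (250 bases early, 245 late). They hold 3 GGGCGG words, the SP/KLF motif, and 1 GGCGCC word, the SMAD1/5 GC-rich site, on either strand and in capitals.
Bmpr2, chr1:59763150-59763399, plus strand: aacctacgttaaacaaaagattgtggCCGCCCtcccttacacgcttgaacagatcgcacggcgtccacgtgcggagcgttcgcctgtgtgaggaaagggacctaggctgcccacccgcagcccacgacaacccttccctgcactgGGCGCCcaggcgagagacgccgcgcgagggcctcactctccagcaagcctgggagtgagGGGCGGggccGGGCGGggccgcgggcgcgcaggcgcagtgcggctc

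Tgfbr2 encodes the TGF-beta type II receptor, on the minus strand (chr9:116084293-116175360), and was the only one of the 10 with a late but no early peak within 1 kb of a start. With all peaks its window was the most covered of the 10 in both lists, at 57% by 33 early peaks and 19.1% by 25 late peaks, the early value at percentile 94.6 of all genes and the late one at 77.5. Despite this the early list covered 0% of the bases within 1 kb of the 5' end, its nearest peaks being 2657 bp upstream and 3027 bp downstream of the starts. The late list covered 59% there, with 1 peak of 1956 bp (chr9:116173584-116175539, GC content 58.8%) that contained both start sites and extended into intron 1. This late peak was weak, with a pileup of 21.8 and a fold of 2.02, at percentile 9.61 of its list. It was lost among peaks at or above the median score. The late peak with the highest fold of all 10 genes, though not the highest pileup, was also in Tgfbr2: 297 bp in intron 1, 31.4 kb from the 5' end, with a pileup of 272 and a fold of 18.7, inside an early peak. Both sequences are shown, the 250 bases before the RefSeq start, of which 176 were late and 0 early, and the whole intronic peak. The promoter holds 2 CCAAT words (the NF-Y motif), 1 on each strand, and the intronic peak 1, in capitals. The intronic peak has a GC content of 41.1% and no CpG, against 58.4% and 12 CpG in the promoter.
Tgfbr2 promoter, chr9:116175364-116175613, minus strand: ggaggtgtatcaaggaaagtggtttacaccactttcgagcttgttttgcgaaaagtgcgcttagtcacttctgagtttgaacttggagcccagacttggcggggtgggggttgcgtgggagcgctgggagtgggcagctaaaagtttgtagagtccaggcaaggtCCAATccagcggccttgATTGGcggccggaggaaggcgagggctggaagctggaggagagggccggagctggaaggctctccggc
Tgfbr2 intronic peak, chr9:116143810-116144106, minus strand: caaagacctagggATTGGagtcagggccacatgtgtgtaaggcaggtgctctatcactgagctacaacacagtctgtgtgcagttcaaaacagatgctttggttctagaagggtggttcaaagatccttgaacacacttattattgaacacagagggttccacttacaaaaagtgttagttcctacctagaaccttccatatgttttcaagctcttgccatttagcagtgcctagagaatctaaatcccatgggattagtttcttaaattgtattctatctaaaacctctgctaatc

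Acvr2a and Acvr2b encode type II receptors of activins that also serve BMP ligands. Acvr2a (chr2:48814109-48903269, plus strand) had 32 early and 16 late peaks, covering 42.6% and 9.38%, the lowest late share of the 10. Its single start lay inside an early peak of 7423 bp (fold 2) and a late peak of 748 bp (pileup 33.9, fold 3.09) that fell wholly within it. The late peak had a GC content of 76.9%, against 44.6% for the early one. Its highest late fold was 14.4, at a pileup of 366, in intron 1, 35.6 kb from the start, where the early list had no peak. Acvr2b (chr9:119402118-119434995, plus strand) had 21 early and 12 late peaks, covering 50% and 14.5%. As at Tgfbr1, the late list covered more of its 5' window, 67.3% against 51.9%. A late peak of 2119 bp (pileup 58.8, fold 3.59) contained both starts and ran into intron 1, while the early peak of 3675 bp (fold 2.31) reached only the first start from upstream. The Acvr2a promoter is shown as one that both lists covered over all 250 bases. It has a GC content of 82%, 49 CpG dinucleotides and 2 GGGCGG words on the opposite strand.
Acvr2a promoter, chr2:48813859-48814108, plus strand: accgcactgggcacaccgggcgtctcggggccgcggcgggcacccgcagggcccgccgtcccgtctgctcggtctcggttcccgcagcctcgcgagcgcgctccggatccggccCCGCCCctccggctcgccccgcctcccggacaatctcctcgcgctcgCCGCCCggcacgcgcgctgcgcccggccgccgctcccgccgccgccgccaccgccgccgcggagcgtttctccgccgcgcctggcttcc

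Eng encodes endoglin, the endothelial co-receptor that presents BMP9 to ALK1, on the plus strand (chr2:32646595-32682669). It had 22 early and 15 late peaks, covering 45.2% and 16.1%. An early peak of 1542 bp (pileup 32.7, fold 2.51) contained both starts of the first group and covered 77.1% of the 5' window. In the late list 2 peaks flanked that position without touching it, a peak of 557 bp (fold 3.83) that ended 807 bp before the first start and a peak of 2661 bp (fold 3.23) that began 756 bp after the last start of the group, so that 20.6% of the window was covered. The 250 bases before the start were early over all 250 and late over 0. Enhancers upstream of Eng and in its introns are known from reporter mice. Of the 5 late peaks in introns the one with the highest fold, of 1284 bp (pileup 129, fold 9.67), was in intron 1, centred 9.15 kb from the start, and 887 bp of it were also early. Others in introns had folds of 7.26, 4.58, 2.78 and 8.29. No late peak of Eng exceeded the 90th percentile of fold in its list, 10.3. The promoter, with 4 CpG dinucleotides and none of the motif words, is shown beside the centre of the intronic peak, which holds 1 GGCGCC word in capitals. That word is in 1.2% of all late peaks over the same length.
Eng promoter, chr2:32646345-32646594, plus strand: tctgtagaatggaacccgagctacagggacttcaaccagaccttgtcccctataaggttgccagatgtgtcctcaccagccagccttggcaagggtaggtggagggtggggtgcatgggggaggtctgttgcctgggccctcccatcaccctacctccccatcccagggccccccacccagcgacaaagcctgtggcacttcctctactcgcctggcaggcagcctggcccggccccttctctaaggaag
Eng intronic peak, chr2:32655593-32655892, plus strand: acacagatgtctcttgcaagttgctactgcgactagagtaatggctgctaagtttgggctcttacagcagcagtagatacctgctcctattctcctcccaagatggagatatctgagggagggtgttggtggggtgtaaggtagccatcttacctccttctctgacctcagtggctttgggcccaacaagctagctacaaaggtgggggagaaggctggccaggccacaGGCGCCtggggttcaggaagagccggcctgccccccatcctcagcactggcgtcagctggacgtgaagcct

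Tgfbr3 encodes betaglycan, the co-receptor that presents TGF-beta to TGFBR2, on the minus strand (chr5:107106570-107289629), and is the longest of the genes. It had 50 early and 40 late peaks, covering 42.6% and 17.5%, and 30 of its late peaks were intronic. An early peak of 2370 bp (fold 2.25) contained its first start and covered 64.1% of the 5' window. A late peak of 312 bp (pileup 47.1, fold 4.27), wholly inside the early one, lay 863 bp upstream of the start and covered 6.9%. Its highest late fold, 12.1 (pileup 173, 483 bp, 71.8% repeats), was in intron 4, 116 kb from the 5' end. The window also held the widest late peak of the 10 genes, 3754 bp in an intron 49.8 kb from the 5' end (fold 4.12), and the widest early peak, 7875 bp (fold 2.13).

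**Figure D3:**
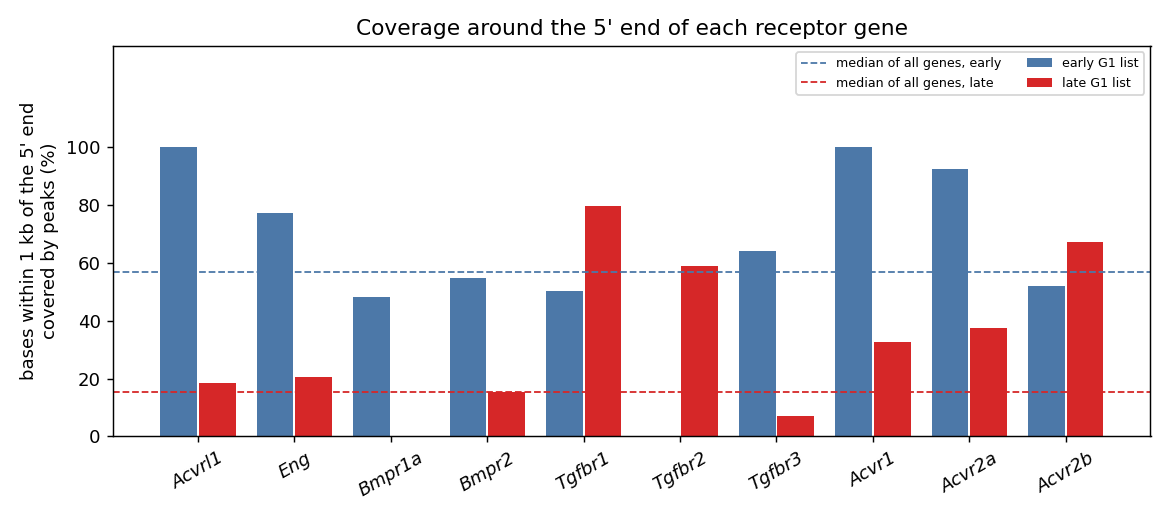
Share of the bases within 1 kb of each gene's 5' end covered by peaks, in percent, as bars from 0 (blue early G1, red late G1), with dashed lines at the medians of all protein-coding genes (56.7% early, 15.4% late). Tgfbr1, Tgfbr2 and Acvr2b are covered more in the late list, Bmpr1a is at 0 in the late list and Tgfbr2 at 0 in the early list.

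At the 5' end the receptors fell into groups that the counts of start-site peaks do not show. The median coverage of the 5' window was 59.5% for early peaks and 26.6% for late ones, against 56.7% and 15.4% over all genes. Acvrl1 and Acvr1 were covered at 100% in the early list, as were 18.4% of all genes. In the late list Bmpr1a alone of the 10 was at 0%, and in the early list Tgfbr2 alone. Early peaks contained a start of the first group, the starts nearest the 5' end, in 9 of the 10 genes, against 64.7% of all genes. Late peaks did so in 5, namely Bmpr2, Tgfbr1, Tgfbr2, Acvr2a and Acvr2b, against 35.3% of all genes. In 4 of the remaining genes, Acvrl1, Eng, Tgfbr3 and Acvr1, late peaks were in the window but beside the start. Of 7 internal start groups, more than 1 kb from the previous start, 6 had an early peak within 1 kb, where 86.2% of such groups in all genes did, and 1 a late peak, against 48.6%.

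Over the whole window the receptors did not differ in 1 direction between the lists. To compare lists of unequal coverage, each covered share was divided by the share of the genome that the same list covers. This relative share was higher in the late list for 4 of the 10 receptors (Eng, Bmpr1a, Tgfbr2 and Tgfbr3), against 52.9% of all genes. The log2 ratio of late over early had a median of -0.14, against 0.03 over all genes, whose central 50% lay from -0.30 to 0.34. It was highest for the co-receptors Tgfbr3 (0.32) and Eng (0.12) and lowest for Acvr2a (-0.58), Tgfbr1 (-0.42) and Acvrl1 (-0.41). Bmpr2 had -0.27, Acvr2b -0.18, Acvr1 -0.10, Tgfbr2 0.03 and Bmpr1a 0.05. In 9 of the 10 genes the sign changed under at least 1 of 6 alternative settings, and in Bmpr2 it did not (-0.62 to -0.17). Unscaled, the late share was below the early share in all 10 genes, and it was above it in 1.19% of all genes.

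**Figure D4:**
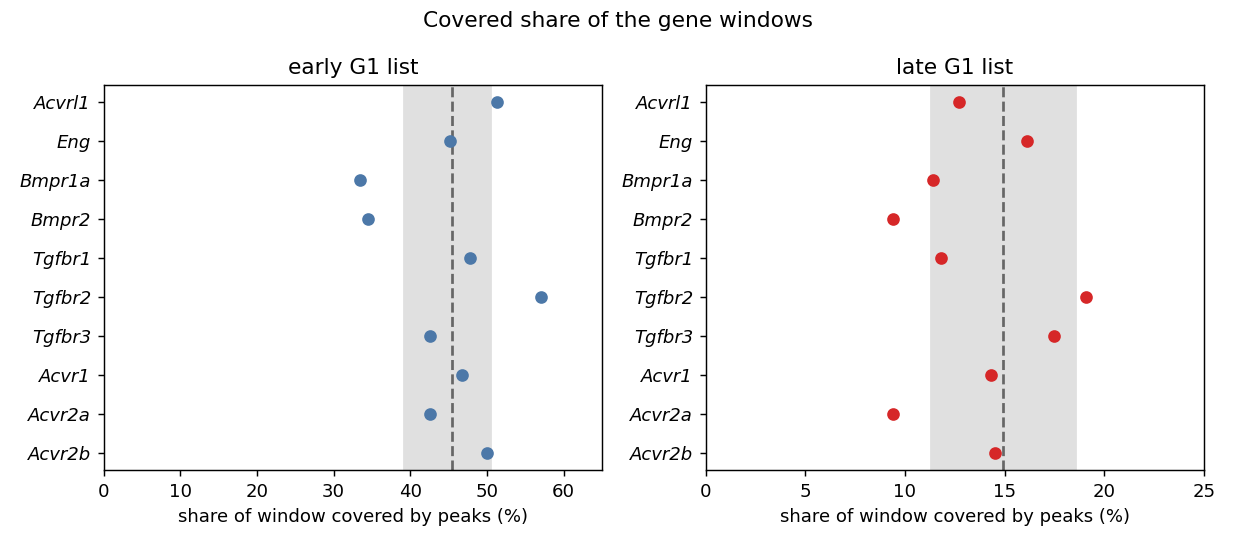
Share of each gene window covered by peaks, in percent, in the early (left, blue) and late (right, red) G1 list; each point is 1 gene, the dashed line is the median of all protein-coding genes (45.4% early, 14.9% late) and the grey band their central 50%. With all peaks used Tgfbr2 is highest in both lists, and Bmpr1a and Bmpr2 lie below the band in the early list.

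Ordered by late covered share, the genes ran from Tgfbr2 (19.1%), Tgfbr3 (17.5%) and Eng (16.1%) through Acvr2b, Acvr1, Acvrl1, Tgfbr1 and Bmpr1a to Bmpr2 (9.41%) and Acvr2a (9.38%). In the early list the order was Tgfbr2 (57%), Acvrl1 (51.3%), Acvr2b (50%), Tgfbr1, Acvr1, Eng, Acvr2a and Tgfbr3 (42.6% each), Bmpr2 (34.5%) and Bmpr1a (33.4%). Without replicates no neighbours in these orders can be told apart. The ends of the order depended on the window and on the peaks used. Over the gene body alone Acvr2b was highest among early shares (58.3%), and Acvrl1 was highest (21.4%) and Bmpr1a lowest (5.45%) among late ones. With peaks at or above each list's median score Acvrl1 was highest early (30.6%, against 27.7% for Tgfbr2), and Acvr2b was highest late (12.4%, against 8.12% for Tgfbr2). With a fold of at least 2 the highest early share was that of Tgfbr1 (40.1%). Late peaks in a window lay inside early peaks to different degrees, from 36.5% of their bases at Bmpr1a and 37.6% at Bmpr2 to 69.7% at Tgfbr1 and 70.4% at Acvrl1, with a median of 55.7% against 50.2% over all genes.

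Sequence features of the peaks followed their position. Late start-site peaks had a median GC content of 57% and intronic late peaks 44.5%, and the early medians were 51.1% and 44.1%. Repeats made up a median of 10.1% of late start-site peaks and 21.2% of late intronic peaks. 10 motif words were searched on both strands in the central 300 bp of every peak, and none of them contains another. The SMAD words were the SMAD3/4 palindrome GTCTAGAC, the SMAD box CAGACA and the GC-rich SMAD1/5 site GGCGCC. Words of general promoter factors were GGGCGG for the SP and KLF family and CCAAT for NF-Y. Words of endothelial and signal-dependent factors were CCGGAAG for the ETS family, TGANTCA for AP-1, TGTTTAC for forkhead factors, AGATAA for GATA factors and ACAATG for SOX factors. The SMAD box was in 26.8% of the 190 late receptor peaks and in 24.8% of all late peaks, and GGCGCC in 1.05% and 1.2%. The palindrome was in none of the early or late receptor peaks and in 0.254% of all late peaks. CCGGAAG was in 1.58% against 1.13%, TGANTCA in 9.47% against 8.65%, and CCAAT in 31.6% against 40%. TGTTTAC was in 3.68% against 4.23%, AGATAA in 13.7% against 17.6%, ACAATG in 14.7% against 17.7%, and GGGCGG in 4.21% against 3.89%. Among 32851 RefSeq promoters (GRCm38.p6), GGGCGG was in 32.7% of the 250 bases before the start, CCAAT in 33.8% and GGCGCC in 9.59%. The RefSeq table matched 8 of the 10 receptors, leaving out Acvrl1 and Tgfbr3.

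The other 43 genes of the pathway, taken by role, had start-site peaks in both lists in 33 cases, in the early list only in 9 and in the late list only in 1. Over all genes these shares were 64.3%, 28.3% and 3.07%. Of 11 ligand genes 8 had them in both lists and Bmp4, Tgfb3 and Inhba in the early list only. Their late relative share ran from 0.54 for Bmp2, a ligand of ALK3, to 2.07 for Tgfb2, and Gdf2, the gene of BMP9, was at 1.34. Among 6 other receptors and membrane modulators, Acvr1c, the gene of ALK7, was early only and had the lowest late relative share, 0.606, and Acvr1b, the gene of ALK4, the highest, 1.74. Among 7 transducers Smad1, Smad4 and Smad5 were early only. Smad3, which relays TGF-beta, had the highest late relative share (1.59), and Smad1, which relays BMP, the lowest (0.822). Of 7 inhibitors inside the cell Smad7 was early only, and Smad6, which blocks BMP signalling, had 1.79 against 0.631 for Smurf2, a ubiquitin ligase. Of 6 secreted antagonists and binding proteins Nog was late only and had the lowest share (0.62), and Chrd the highest (1.46). Of 6 target genes Id3 was early only, and Hey2, a Notch and BMP target, had the lowest share (0.842). The 43 genes together had a late start-site peak in 34 cases, and the 10 receptors in all 10, where 67.4% of all genes did. With peaks at or above each list's median score the receptor count was 5 of 10. No such count was made for the 43 genes. The difference between the receptors and the 43 genes was not tested.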

How the data were processed

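The data were 7 ATAC-seq libraries, 3 early G1 and 4 late G1, grouped by sample title. The submitters' processing notes name the mm10 build with MACS2, bedtools, STAR and Trimmomatic. Broad peak calling by the authors used MACS2 2.2.7.1 on 1 merged fragment file per group, per the file headers, without a control, with all duplicates kept, a background range of 10000 bp and q cutoffs of 0.05 and 0.1. Duplicates can raise a pileup, and a broad call joins neighbouring regions. The deposited signal of a peak is its pileup, not scaled to depth, and its fold is the deposited ratio to local background. The deposited -log10 p and -log10 q columns have damaged headings and were identified by MACS2 column order. These are the authors' values and serve only to describe or rank peaks within a list. With pooled lists there is no per-sample depth, and no test between the lists and no p-value was computed. A 95% binomial interval was used only to label recomputed coverage values as close or not, as stated below.

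Genes and start sites are those of GENCODE M21 on GRCm38, the build of mm10. A peak's position was that of its centre unless it overlapped a start-site window. The exon class used the exons of all transcripts of a gene, whereas exon and intron numbers follow 1 principal transcript per gene. Percentiles are ranks among 21829 protein-coding genes or within a list. The members and lists were chosen with earlier results of these data known. All 10 members are named, with every start-site peak or the highest fold outside start sites, and per pathway role the highest and lowest late relative share. Some values that this rule would name are not reported here. Sequences shown are starts that differ between lists or hold the strongest peak; the Eng, Acvrl1 and Acvr2a ones were added after their values were seen. The search for overlaps was tested on simulated data, with 0 wrong of 2000 intervals. The tools were samtools 1.23.1, pysam 0.24.0, pandas 2.3.3, NumPy 2.4.6 and Python 3.11.15. The alternatives tried were stricter peak sets, joined peaks, other windows and a reciprocal overlap.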

Additional observations from a re-analysis of the deposited data

How the results depend on the processing

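No paired analysis was possible because each group has 1 pooled list, so the replicate numbers of the labels carry no values, and leaving out a library could not be done either. Joining peaks within 200 bp changed no value. Of 68 recomputed summary values 35 were labelled close to the main one, by unlike rules for counts and coverage. A count was allowed to change by a set factor, so 7 late start-site genes in place of 10 were labelled close. Coverage had to lie in the 95% binomial interval of the main value, which is very narrow because it treats bases as independent. Early coverage of 42.7% in place of 44.2% was therefore not labelled close. The 35 is thus no measure of stability. Start-site peaks were early in 5 genes with equal numbers of the strongest peaks, against 47.1% of all genes. They were late in 5 genes with that setting and with only peaks at or above each list's median score (the upper part). The late share of all genes was 31.8% with either setting. For the late list these settings keep nearly the same peaks by construction, so their late values are not separate checks. Both lists had start-site peaks in 3 genes with equal numbers and in 5 with the upper part. The number was 3 when the peak's centre had to lie in the window. With a window of 3 kb all 10 genes had one in both lists. The share of all genes with start-site peaks in both lists was not computed under these settings, so these counts have no background. The windows held 176 early and 106 late peaks with the upper part by score, 113 and 106 with equal numbers, 208 early peaks with a fold of at least 2, and 126 and 288 late peaks with flanks of 0 and 50 kb. Early coverage was 25% with the upper part, 13.9% with equal numbers, 28.8% with a fold of at least 2, and 42.7% and 45.4% with flanks of 0 and 50 kb. Late coverage was 7.88%, 7.88%, 12.9%, 12.8% and 14.2% under the same settings. Late peaks that overlapped an early peak were 42 of 106, 24 of 106 and 87 of 176 under the first 3 settings. They were 93 of 126 with flanks of 0 kb and 26 of 190 with a reciprocal overlap of 50%. Early peaks that overlapped a late one were 41 of 176, 24 of 113 and 81 of 208 under the first 3 settings. With the reciprocal overlap they were 26 of 330. Shares over all peaks were not computed for these settings. Equal numbers put 7 genes higher in the late list by relative share, in place of 4. The log2 ratio changed sign with the upper part for Tgfbr1 (0.02), Tgfbr2 (-0.05) and Acvr2b (0.63), and with equal numbers for Eng (-0.18), Tgfbr1 (0.33), Acvr1 (0.34), Acvr2a (0.03) and Acvr2b (0.07). With a fold of at least 2 it did so for Tgfbr3 (-0.01), Acvr1 (0.30) and Acvr2b (0.26), with flanks of 0 kb for Acvrl1 (0.31), Bmpr1a (-0.94), Tgfbr2 (-0.26) and Acvr2b (0.01), and with 50 kb for Bmpr1a (-0.05) and Acvr2b (0.15). Settings that keep fewer peaks lower counts and coverage by construction; the cause of the sign changes was not tested. Depth was similar in the pools, but the lowest pileup listed, 19 in both, limits what a missing peak shows: an uncovered start may hold fragments below the cutoff.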
